A study of Bos taurus with 30 samples.

Results

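The epithelial to mesenchymal transition (EMT) genes were followed in the embryonic disc (ED) and the extra-embryonic membranes (EEM) of day 15 bovine embryos, produced in vitro (IVP) or in vivo (IVV). The members were taken by name, as the rows of the count table whose Entrez ID maps to SNAI1, SNAI2, TWIST1, ZEB1, ZEB2, CDH1, CDH2, CDH11, VIM or EPCAM in cattle, which gave 10 of the 35092 genes. The rule uses gene names and no threshold on a measured value.

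In an EMT, cells of a sheet give up their adherens junctions, lose contact with their neighbours and move as single mesenchymal cells. SNAI1, SNAI2, ZEB1 and ZEB2 encode zinc finger repressors that bind E-boxes, among them those of the E-cadherin gene CDH1, and TWIST1 encodes a basic helix-loop-helix factor of mesoderm. In the bird and mammalian disc the best known EMT is the ingression of epiblast cells through the primitive streak, where E-cadherin gives way to N-cadherin (CDH2). Cadherin-11 (CDH11) and the intermediate filament vimentin (VIM) are products of mesenchymal cells, and EPCAM is a surface adhesion protein of epithelia. In ruminants the trophoblast around the disc remains an epithelium while the membranes elongate.

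RNA was measured in 30 poly(A)-selected libraries from 17 embryos, all at day 15. Of the ED there were 7 libraries from IVP and 9 from IVV embryos, and of the EEM 6 and 8; for 13 embryos, 5 IVP and 8 IVV, libraries of both tissues exist. The IVP embryos came from slaughterhouse oocytes that were matured, fertilized with the semen of 1 bull, grown in serum-free medium and transferred at day 7 into 2 recipient cows, while the IVV embryos were conceived by insemination of 2 superovulated donor cows. Recovery at day 15 was the same for both, so that the IVP embryos also spent their last days in a uterus, and embryos without a visible ED had been discarded. Few cows carried each kind of embryo, and procedure, cow and hormone treatment cannot be told apart. The paper also reports that the recovered IVP embryos were shorter than the IVV embryos and that a smaller share of them had an ED. The length of each embryo is not in the labels, and its part in the results below was not tested. Levels are given as CPM (counts scaled to the size of the library) after TMM scaling, from libraries of 48713218 to 63037371 counts; each gene is compared between libraries and not with other genes, since no transcript lengths entered the scale, and sums of markers are sums of CPM in which a few genes of high CPM weigh most. Each embryo counts as 1 replicate of its group.

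Several measures of the libraries moved with the groups. Summed markers of primitive streak and early mesoderm (15 genes, among them TBXT, EOMES and MIXL1) ran from 9.3 to 20.9 CPM in the ED of IVP embryos and from 37.3 to 176 CPM in the ED of IVV embryos, with no overlap, and from 4.25 to 14.7 CPM in the EEM. Summed epiblast markers had medians of 177 CPM in the ED of IVP embryos, 256 CPM in the ED of IVV embryos, 138 CPM in the EEM of IVP embryos and 139 CPM in the EEM of IVV embryos. POU5F1, a pluripotency factor of the epiblast, ran from 16.5 to 39.3 CPM in the ED of IVP embryos and from 27.1 to 227 CPM in the ED of IVV embryos and was lower in IVP embryos (log2 fold change -1.72, adjusted p = 0.0048); it stayed under 3 CPM in the EEM. It was the 1 of 6 tested epiblast markers to pass in the ED, where NANOG had an estimate of -1.34 (adjusted p = 0.0517) and LIN28A, LIN28B, TDGF1 and SALL4 lay between -0.28 and -0.03. SOX2 and UTF1 had 0 counts in all 30 libraries. The pieces called ED also held trophoblast transcripts, 6520 to 44200 CPM in IVP and 18800 to 32600 CPM in IVV embryos, against 12000 to 63400 (median 19400) and 17300 to 46500 CPM (median 39300) in the EEM. In the EEM the medians of summed hypoblast markers were 2020 CPM in IVP and 1440 CPM in IVV embryos. Summed markers of the maternal uterus had medians of 14.8 CPM in IVP and 7.74 CPM in IVV embryos in the ED and 16.5 and 10.2 CPM in the EEM, and those of maternal blood 3.82 and 3.08 CPM in the ED and 2.35 and 1.31 CPM in the EEM, with overlapping ranges. The mucin gene MUC1, on the uterus list, was higher in the ED of IVP embryos (log2 fold change 1.10, adjusted p = 0.0162); it was the 1 of 5 tested uterus markers to pass there, and none of 3 passed in the EEM. The part of these cell mixtures in the results below was not tested, and in such pieces fewer cells of a type cannot be told apart from less RNA per cell. XIST, the RNA that coats the inactive X chromosome in female cells, was under 1 CPM in all 13 IVP libraries and in the libraries of IVV embryos 3 and 5, and between 44.9 and 421 CPM in the other IVV libraries. Embryo sex is not in the labels, and a model with XIST as a covariate was therefore run beside each comparison of IVP with IVV. In these models XIST nearly follows procedure and is separated from it by IVV embryos 3 and 5 only. A call lost with XIST as a covariate can therefore be assigned neither to XIST nor to procedure. IVV embryo 19 stood apart from the other IVV embryos in the ED for several members and is given with and without its value; its streak markers (49.7 CPM) and epiblast markers (223 CPM) lay within the IVV range.

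Between IVP and IVV embryos the members that changed were SNAI2, CDH11 and TWIST1, while neither CDH1 nor CDH2, the cadherins of the classical switch, passed the test in either tissue. In the ED, 8 members had enough counts to be tested and 2 were lower in IVP embryos, CDH11 and SNAI2; over all 15733 genes tested 6.34% changed, 4.95% lower and 1.4% higher. In the EEM, 6 members were tested and 2 changed, TWIST1 higher and SNAI2 lower in IVP embryos, where 3.81% of 14718 genes changed, 2.29% higher and 1.52% lower. Between the tissues of the same embryo 5 of 8 tested members were higher in the ED, namely CDH11, VIM, SNAI2, CDH2 and CDH1, and none lower, where 24.5% of 16784 genes differed, 14.4% higher and 10.1% lower in the ED. Of these members, CDH11 and VIM had too few counts in the EEM to be tested there. Both entered the tissue test through the ED and could hardly come out lower in it. SNAI1 and ZEB2 passed the filter on low counts in no comparison.

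**Figure D1:**
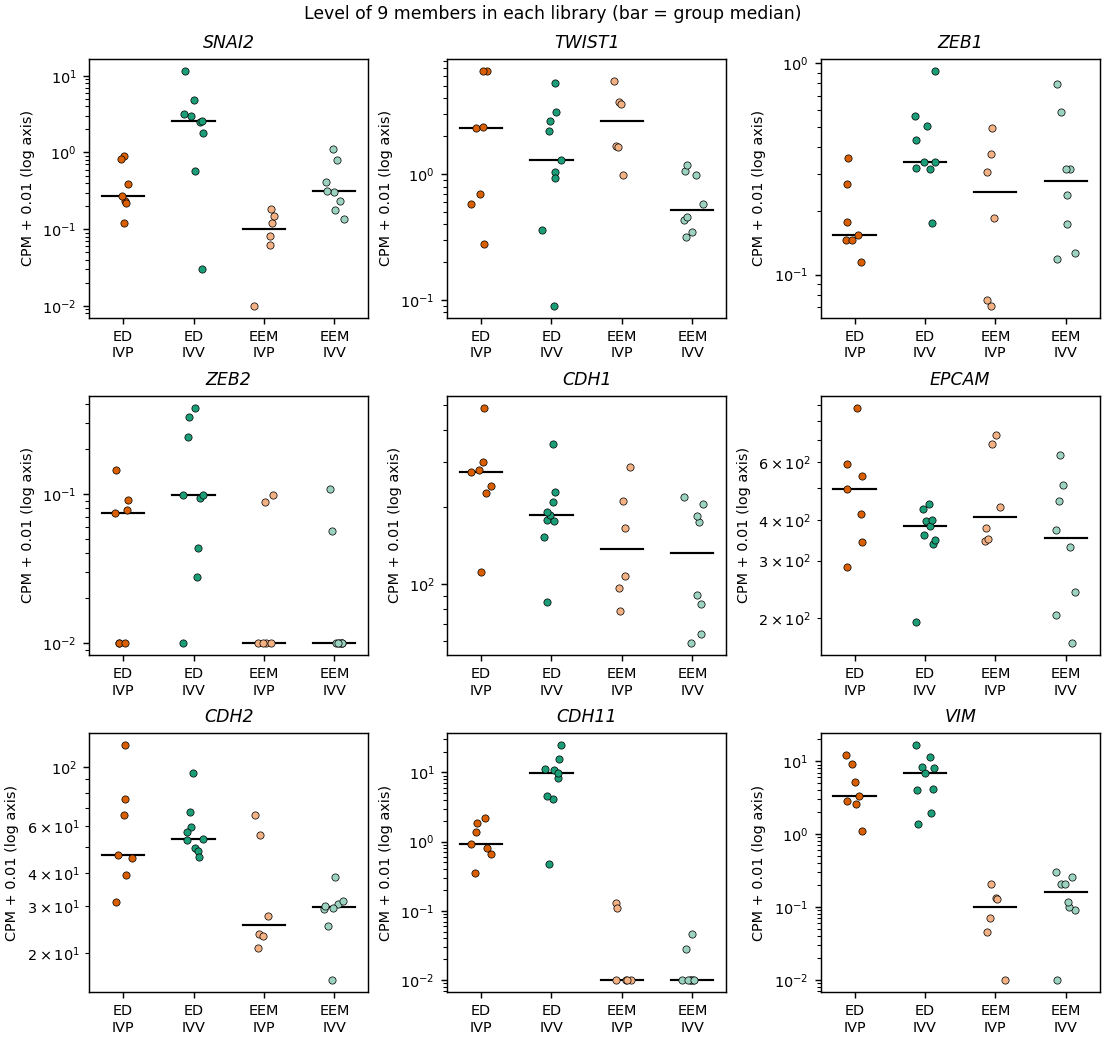
Level of each member but SNAI1 (0 in all libraries) in CPM, with 0.01 added, on a log axis; points are libraries and bars are group medians of 7 (ED IVP), 9 (ED IVV), 6 (EEM IVP) and 8 (EEM IVV) embryos. CDH11 and VIM were at most 0.118 and 0.297 CPM in any EEM library, and 1 IVV library of the ED lies with the IVP libraries for CDH11 and below them for SNAI2.

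SNAI1, the first Snail factor and a marker of the ingressing streak in the mouse, had 0 counts in each of the 30 libraries. A count of 0 allows up to 3 counts in a library, and whether reads of this gene were lost in the counting was not tested. SNAI1 can therefore be given no level in either tissue.

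SNAI2, the other Snail factor and a repressor of CDH1, was low in nearly every ED of IVP embryos and varied widely among IVV embryos. In the ED of IVP embryos it stood at 0.111, 0.212, 0.224, 0.263, 0.382, 0.803 and 0.882 CPM. In the ED of IVV embryos it stood at 0.02, 0.561, 1.81, 2.47, 2.54, 3, 3.12, 4.87 and 11.6 CPM, so that 7 of 9 IVV embryos lay above every IVP embryo, while IVV embryo 19, with a single count, lay below all of them. The means were 0.411 ± 0.306 CPM (SD, n = 7) and 3.33 ± 3.4 CPM (SD, n = 9). The fitted log2 fold change was -3.02 ± 0.68 (SE), an 8.12-fold lower level in IVP embryos (adjusted p = 0.00798). Without embryo 19 it was -3.22 (adjusted p = 0.000802), and it passed the threshold whichever embryo was left out. With XIST as a covariate the estimate was -2.08 (adjusted p = 0.215), and with the 4 ED libraries titled IVPF left out it was -3.23 (adjusted p = 0.184); over the 10 other alternatives the adjusted p ran from 0.00152 to 0.215. The IVV embryos 3 and 5, which like the IVP embryos had almost no XIST, held 0.561 and 3.12 CPM, the first within and the other above the IVP range.

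In the EEM, SNAI2 was close to the limit of detection, with 0 to 9 counts in a library of IVP embryos (0 to 0.176 CPM, median 0.0909) and 7 to 56 counts in IVV embryos (0.126 to 1.09 CPM, median 0.302). Of 8 IVV embryos 6 lay above all 6 IVP embryos. Its log2 fold change was -2.17 ± 0.58 (SE, adjusted p = 0.0333). The call was lost without IVP embryo 10 (adjusted p = 0.0638), 14 (0.0797) or F9 (0.0668), and over the other alternatives the adjusted p ran from 0.01 to 0.141. Within an embryo, SNAI2 was higher in the ED in 12 of 13 embryos, the exception being embryo 19, whose ED lay 2.56 below its EEM on the log2 CPM scale. The tissue difference was 2.10 ± 0.44 (log2, SE, adjusted p = 0.00149) over all embryos, 2.29 ± 0.52 (adjusted p = 0.00308) within IVV embryos and 1.71 ± 0.74 (adjusted p = 0.231) within IVP embryos. The difference between the procedures in this tissue effect, -0.58 ± 0.95, did not pass the test (adjusted p = 0.937; 95% interval -2.45 to 1.29).

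TWIST1, a factor of early mesoderm and of the mesenchymal state, was higher in the EEM of IVP embryos, whereas its ED values overlapped widely. The EEM of IVP embryos held 0.982, 1.65, 1.67, 3.62, 3.74 and 5.46 CPM. The EEM of IVV embryos held 0.309, 0.34, 0.42, 0.449, 0.573, 0.986, 1.06 and 1.17 CPM, so that 5 of 6 IVP embryos lay above all IVV embryos and IVP embryo F14 lay within the upper IVV values. Its mean was 2.85 ± 1.71 CPM (SD, n = 6) against 0.663 ± 0.35 CPM (SD, n = 8), and the log2 fold change was 2.10 ± 0.38 (SE, adjusted p = 0.00132). In the same libraries the median of summed trophoblast markers was 19400 CPM in IVP and 39300 CPM in IVV embryos, but none of 17 trophoblast markers passed the test and their median log2 fold change was 0.04. Of 12 hypoblast markers RSPO3 was higher (1.64) and TTR lower (-7.26), with a median of 0.06. The part of these cell types in the TWIST1 result was not tested. The call held whichever embryo was left out, with adjusted p from 5.79e-07 to 0.00879. With XIST as a covariate the estimate was 1.28 and did not pass (adjusted p = 0.517), and over the 11 alternatives the adjusted p ran from 6.1e-06 to 0.517. IVV embryos 3 and 5, with XIST under 1 CPM, held 1.17 and 0.449 CPM in the EEM, the first of them the highest IVV value and both below 5 of the 6 IVP embryos.

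In the ED, TWIST1 ran from 0.27 to 6.62 CPM in IVP embryos (median 2.34) and from 0.0802 to 5.25 CPM in IVV embryos (median 1.29). The log2 fold change of 0.55 ± 0.64 did not pass the test (adjusted p = 0.751; 95% interval -0.70 to 1.80). The tissues differed by 0.16 ± 0.39 (log2, adjusted p = 0.79) over the 13 embryos. TWIST1 was higher in the ED in 7 of 8 IVV embryos and lower in 3 of 5 IVP embryos. The estimates were 0.90 ± 0.41 (adjusted p = 0.127) within IVV and -0.98 ± 0.51 (adjusted p = 0.348) within IVP embryos, and their difference of -1.88 ± 0.66 did not pass the test (adjusted p = 0.234). Embryo 19 was the exception among the IVV embryos, and without it the tissue difference within IVV embryos was 1.22 (adjusted p = 0.0139).

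ZEB1 and ZEB2, related repressors of CDH1 in mesenchymal cells, were at few counts throughout. ZEB1 had 6 to 18 counts in the ED of IVP embryos (0.105 to 0.344 CPM, median 0.144) and 10 to 51 in that of IVV embryos (0.166 to 0.907 CPM, median 0.331), with 4 of 7 IVP embryos below every IVV embryo. Its log2 fold change was -1.16 ± 0.42 (adjusted p = 0.112), and it passed under none of the alternatives. In the EEM the estimate was -0.01 ± 0.59 (adjusted p = 1; 95% interval -1.16 to 1.14), and between the tissues it was 0.23 ± 0.38 (adjusted p = 0.689). ZEB2 had at most 24 counts in a library and 0 counts in 14 of 30 libraries. Tested without a filter, ZEB2 gave -1.36 ± 0.89 in the ED (adjusted p = 0.401) and 2.21 ± 1.14 between the tissues (adjusted p = 0.212), estimates too wide at this depth to show a difference.

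CDH1 and EPCAM, the epithelial members, were abundant in every library of both tissues. CDH1 ran from 112 to 487 CPM in the ED of IVP embryos (median 274) and from 85.1 to 353 CPM in that of IVV embryos (median 187). The groups overlapped, and the log2 fold change of 0.33 ± 0.20 did not pass the test (adjusted p = 0.415; 95% interval -0.06 to 0.73). In the EEM the range was 78.8 to 287 CPM in IVP embryos (median 137) and 59.2 to 220 CPM in IVV embryos (median 133), with a log2 fold change of 0.16 ± 0.31 (adjusted p = 0.971; 95% interval -0.45 to 0.78).

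Between the tissues, CDH1 transcripts were higher in the one with the streak markers. CDH1 was higher in the ED than in the EEM of the same embryo in 12 of 13 embryos, by 0.56 ± 0.17 on the log2 scale (adjusted p = 0.0194). Within IVV embryos the difference was 0.61 ± 0.21 (adjusted p = 0.0475), and leaving out IVP embryo 10, 11, 14 or F14 or IVV embryo 3, 5, 19, 24 or 28 ended that call, with adjusted p up to 0.123. Within IVP embryos it was 0.47 ± 0.27 (adjusted p = 0.408). Without the pairing by embryo the estimate over the 26 libraries was 0.49 and did not pass (adjusted p = 0.221; 0.0026 to 0.221 over the alternatives).

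EPCAM showed no difference that passed in any comparison. Its median was 495 CPM in the ED of IVP embryos (287 to 879), 382 CPM in that of IVV embryos (194 to 447), 407 CPM in the EEM of IVP embryos (345 to 726) and 352 CPM in that of IVV embryos (168 to 633). The log2 fold changes were 0.43 ± 0.23 in the ED (adjusted p = 0.337; 95% interval -0.02 to 0.87) and 0.55 ± 0.26 in the EEM (adjusted p = 0.343; 0.04 to 1.06, an interval without adjustment). In the ED 4 of 7 IVP embryos lay above all IVV embryos. Between tissues the difference was -0.02 ± 0.15 (adjusted p = 0.949; 95% interval -0.32 to 0.28), with 6 embryos higher in the ED and 7 lower.

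**Figure D2:**
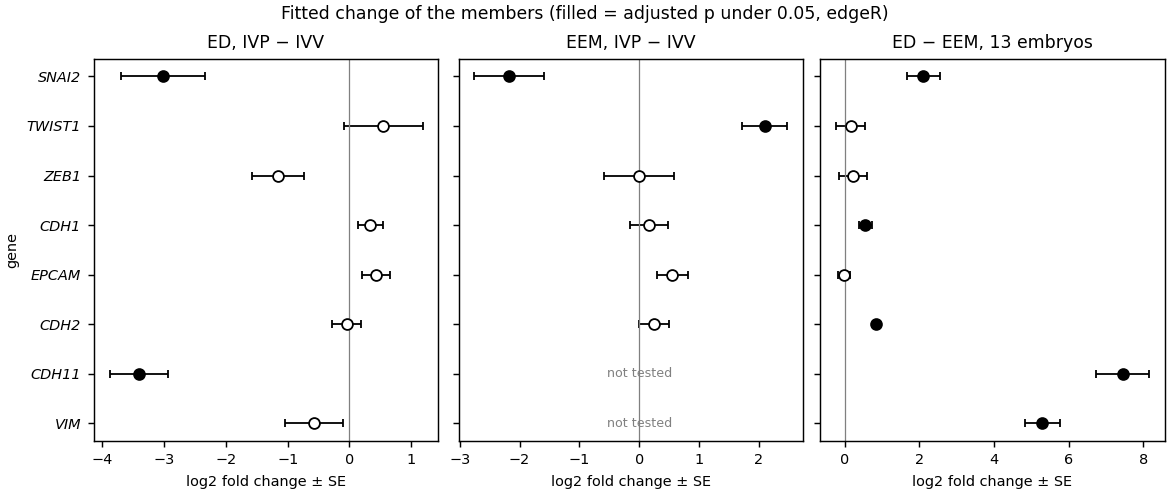
Fitted log2 fold changes with standard errors for the members tested, 8 in the ED (7 IVP, 9 IVV), 6 in the EEM (6 IVP, 8 IVV) and 8 between the tissues of 13 embryos; each panel has its own scale, and filled points passed an adjusted p of 0.05. CDH11 (-3.41) and SNAI2 (-3.02) were lower in the ED of IVP embryos, TWIST1 (2.10) was higher and SNAI2 (-2.17) lower in their EEM, and the 5 tissue differences that passed were all higher in the ED. CDH11 and VIM entered the tissue test through the ED, with too few EEM counts to be tested there.

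CDH2, which encodes N-cadherin, was present in both tissues, and its differences between the procedures did not pass the test. The ED held 31.1 to 121 CPM in IVP embryos (median 46.5) and 46 to 94.9 CPM in IVV embryos (median 53.8). The log2 fold change was -0.05 ± 0.24 (adjusted p = 0.957; 95% interval -0.52 to 0.42). In the EEM the medians were 25.6 CPM in IVP embryos (20.9 to 66) and 29.7 CPM in IVV embryos (15.8 to 38.7), with a log2 fold change of 0.25 ± 0.25 (adjusted p = 0.844). Every embryo had more CDH2 in its ED than in its EEM, by 0.45 to 0.97 (log2 CPM) in the 5 IVP and 0.48 to 1.65 in the 8 IVV embryos. The fitted difference was 0.85 ± 0.10 (adjusted p = 4.66e-06) over all 13 embryos, 0.96 ± 0.13 (adjusted p = 1.84e-05) within IVV and 0.69 ± 0.17 (adjusted p = 0.0167) within IVP embryos. The last was lost without IVP embryo 14 (adjusted p = 0.0805) or F13 (0.0783) and without the pairing (0.466), over a range of 0.000398 to 0.466.

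The count of CDH2 relative to CDH1 in the same library, a ratio in which the scaling of the library cancels, had a median of 0.241 in the ED of IVP embryos (0.0955 to 0.5) and 0.338 in that of IVV embryos (0.13 to 0.583). In the EEM the medians were 0.252 in IVP embryos (0.0988 to 0.398) and 0.239 in IVV embryos (0.139 to 0.393). All 4 ranges overlapped.

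CDH11, a cadherin of mesenchyme and early mesoderm, had the largest difference between IVP and IVV embryos among the 8 members tested in the ED. In the ED of IVP embryos it stood at 0.337, 0.649, 0.81, 0.918, 1.35, 1.87 and 2.19 CPM. In the ED of IVV embryos it stood at 0.461, 4.18, 4.6, 8.32, 9.77, 10.7, 11, 15.7 and 24.9 CPM, so that 8 of 9 IVV embryos lay above every IVP embryo and embryo 19 lay low among the IVP values. The means were 1.16 ± 0.673 CPM (SD, n = 7) and 9.96 ± 7.17 CPM (SD, n = 9). The log2 fold change was -3.41 ± 0.47 (SE), 10.6-fold lower in IVP embryos (adjusted p = 8.13e-05). It passed under all 11 other alternatives, with estimates from -3.54 to -2.84 and adjusted p from 1.26e-13 to 0.0233, and whichever embryo was left out; without embryo 19 the estimate was -3.50 (adjusted p = 7.91e-06). IVV embryos 3 and 5, with XIST under 1 CPM, held 4.6 and 11 CPM, both above all IVP embryos.

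In the EEM, CDH11 was nearly absent: 11 counts in total in 6 IVP libraries, 6 of them in embryo 11 and 5 in embryo F14, and 3 counts in total in 8 IVV libraries. It was not tested there between the procedures in the filtered table, and without a filter the estimate was 2.15 ± 1.21 (adjusted p = 0.392). In the embryos with both tissues the ED held 3990 counts in IVV and 277 counts in IVP embryos. Scaled to library size, the ratio of ED to EEM counts was 23.8 in the 5 IVP embryos (95% interval of the counts 13.1 to 48.3) and 1140 in the 8 IVV embryos (391 to 5550). These intervals cover counting error only and take each count as independent. They would be too narrow if both reads of a pair were counted, which was not tested. All 13 embryos had more in the ED, and the fitted tissue difference was 7.44 ± 0.71 (adjusted p = 2.3e-07), a value that depends on the prior count because of the empty EEM libraries. The tissue difference was smaller in IVP embryos by 5.38 ± 1.26 on the log2 scale (adjusted p = 0.0445), the only member of 8 to pass that test, where 1.02% of genes passed and 0.918% were lower. That test rests on the 14 EEM counts. Leaving out IVP embryo 11 (adjusted p = 0.218) or F14 (0.221), or IVV embryo 4, 5, 24, 26, 28 or 29 (0.0555 to 0.0951), ended the call, and DESeq2 gave an adjusted p of 0.211 (0.00339 to 0.211 over the other alternatives).

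VIM, the vimentin gene, was far higher in the ED than in the EEM of both kinds of embryo. The ED of IVP embryos held 1.08, 2.59, 2.84, 3.31, 5.24, 9.04 and 12.2 CPM. The ED of IVV embryos held 1.38, 1.95, 4.01, 4.13, 6.91, 8.1, 8.22, 11.5 and 16.7 CPM. The groups overlapped nearly in full, and the log2 fold change of -0.57 ± 0.47 did not pass the test (adjusted p = 0.603; 95% interval -1.5 to 0.35). In the EEM it had 0 to 14 counts in a library, at most 0.197 CPM in IVP and 0.297 CPM in IVV embryos. The tissue difference was 5.30 ± 0.47 (adjusted p = 1.24e-07) over all 13 embryos, 5.08 ± 0.57 (adjusted p = 1.72e-06) within IVV and 5.68 ± 0.77 (adjusted p = 0.000111) within IVP embryos. It had the same sign in 13 of 13 embryos, and its difference between the procedures, 0.60 ± 0.94, did not pass (adjusted p = 0.931; 95% interval -1.24 to 2.45). Within IVV embryos 5 members passed, all higher in the ED, where 22.1% of genes passed, 15.6% higher and 6.55% lower. Within IVP embryos 3 passed (CDH2, CDH11 and VIM), where 4.83% passed and 4.18% were higher. In both counts CDH11 and VIM entered through the ED.

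**Figure D3:**
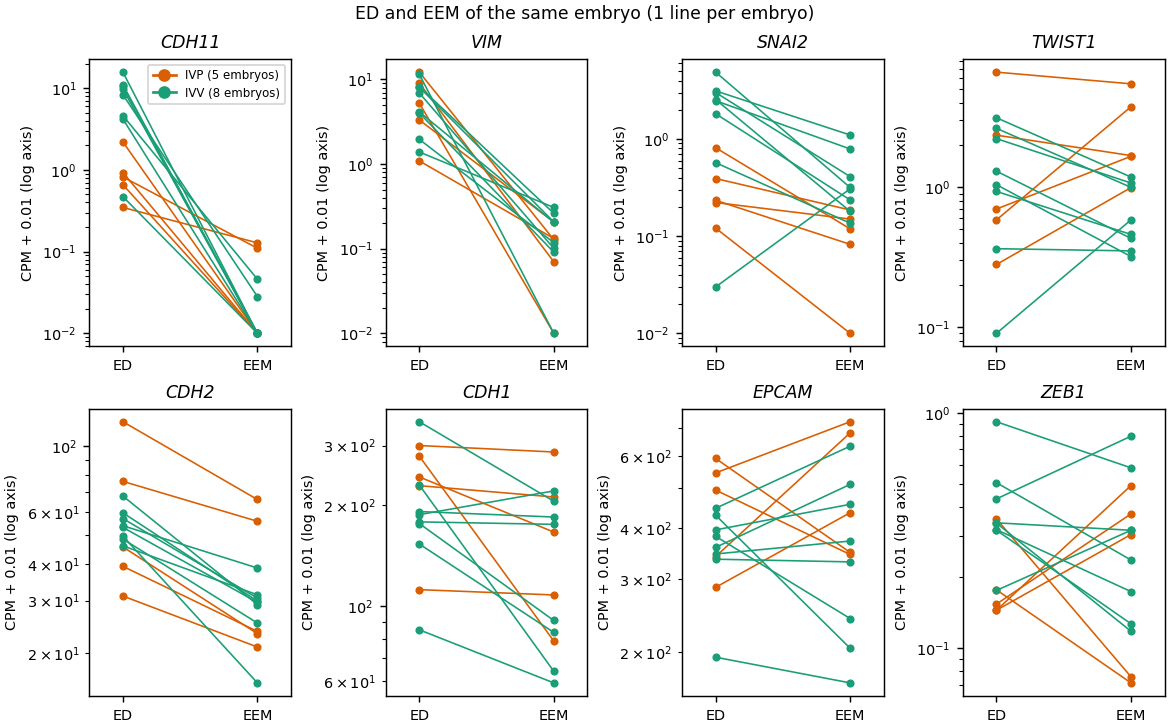
CPM with 0.01 added, on a log axis, in the ED and EEM of the same embryo; each line is 1 of 5 IVP or 8 IVV embryos. CDH11, VIM and CDH2 lie higher in the ED of all 13 embryos, whereas EPCAM is higher in the ED of 6 and lower in that of 7.

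Among the IVV embryos the levels of SNAI2, CDH11 and VIM in the ED went together. Over the 9 embryos, log2 CPM of SNAI2 and CDH11 had r = 0.973 (exact permutation p = 0.000107, adjusted 0.00602) and rho = 0.917 (exact permutation p = 0.00131, adjusted 0.0735). Without the 2 embryos farthest from the median of SNAI2, r was 0.813. SNAI2 and VIM had r = 0.88 (exact permutation, adjusted p = 0.0179) and rho = 0.733 (adjusted p = 0.538), with r = 0.775 without 2 embryos. CDH11 and VIM had r = 0.853 (exact permutation, adjusted p = 0.0179) and rho = 0.783 (adjusted p = 0.482), with r = 0.699 without 2. The adjustment covers the 28 pairs of 8 members in each procedure, 56 relations, and no rank correlation passed it. Among the 7 IVP embryos SNAI2 and CDH11 had r = 0.0524, and none of the 28 pairs passed in them. Whether the relation differs between the procedures was not tested. Between the ED and the EEM of the 8 IVV embryos, no member of 6 had a relation that passed. TWIST1 had r = 0.543 (exact permutation p = 0.162) and rho = 0.619. These values hung on few embryos. Without the 2 embryos farthest from the ED median, r was 0.941 for TWIST1, while it fell from 0.562 to -0.128 for CDH1 and from 0.565 to -0.497 for EPCAM.

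**Figure D4:**
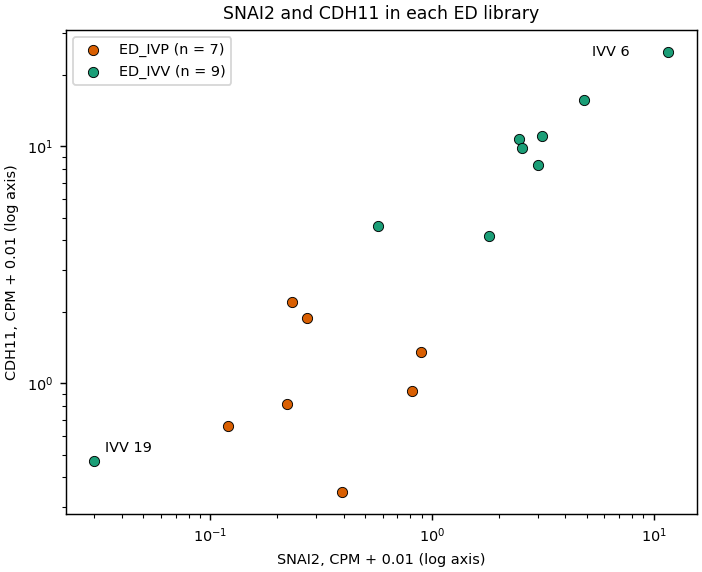
CPM of SNAI2 and CDH11, each with 0.01 added, on log axes, 1 point per ED library (7 IVP, 9 IVV). IVV embryo 6 is highest for both (11.6 and 24.9 CPM), and IVV embryo 19 (0.02 and 0.461 CPM) lies below all IVP embryos for SNAI2 and among them for CDH11.

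The genes whose log2 CPM ran most like a member's over the 16 ED libraries were searched among 13851 named genes, without a test. For CDH11 they were PDGFRB, a receptor of mesenchymal cells (Pearson r = 0.983, and 0.981 within IVV and 0.921 within IVP embryos), and the growth factor gene NRG1 (r = 0.972). For SNAI2 they were ANGPTL6 (r = 0.894) and the collagen gene COL1A2 (r = 0.886), for VIM MEIS2 (r = 0.834) and the caveolin gene CAV1 (r = 0.826), and for TWIST1 ARC (r = 0.811) and SGMS2 (r = 0.806). For ZEB1 they were ID2, an inhibitor of helix-loop-helix factors (r = 0.882), and DPEP3 (r = 0.846). The closest to CDH1 were HEATR1 (r = 0.901) and ULK4 (r = 0.891), to CDH2 ELOVL7 (r = 0.868) and SLC19A1 (r = 0.863), and to EPCAM FRMD3 (r = 0.858) and GNA14 (r = 0.85). Within the groups some of these were lower, as 0.547 for SNAI2 and COL1A2 in IVP embryos (0.944 in IVV) and 0.506 for EPCAM and GNA14 in IVV embryos (0.978 in IVP), and others were not, as 0.888 in IVV and 0.862 in IVP embryos for VIM and MEIS2.

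Other genes of the EMT were read from 6 lists. In the ED of IVP embryos, 7 of 19 tested EMT transcription factors of the list were lower and none higher (median log2 fold change -1.25, against -0.01 over all genes). The 4 with the smallest p were MESP2 (-4.45), LEF1 (-3.57), FOXF1 (-3.75) and TBX6 (-2.03), factors of streak and mesoderm or, for LEF1, of Wnt signalling. The list shares 8 of its 24 genes with the streak markers, and 6 of the 7 lower genes are among those 8. Of 43 mesenchymal genes 13 were lower and 1 was higher: TGFBI (-3.18), the matrix gene TNC (-3.84), PDGFRB (-3.45) and THY1 (-2.30) led the lower ones, and the fibronectin receptor subunit ITGA5 was higher (0.90). Of 19 other cadherins 3 were lower, PCDH10 (-2.59), PCDH8 (-2.84) and CDH7 (-2.14). Over all genes tested in the ED, 4.95% were lower and 1.4% higher in IVP embryos.

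Among 30 tested genes of signalling pathways known to induce EMT, called signals here, 8 were lower in the ED of IVP embryos, led by the ligands WNT5A (-3.13), BMP4 (-1.74) and WNT3 (-3.06), and PDGFB was higher (1.14). One of the 8, SMAD7 (-1.33), encodes an inhibitor of TGF-beta signalling and not an inducer. Of 14 keepers of the epithelial state none passed the test, and of 43 junction and polarity genes the keratin gene KRT7 did (-0.95), with list medians of 0.11 and 0.17; beside the 6.34% of all genes these counts are near the background, and no difference between lists was tested. Without the embryos titled IVPF, which leaves 3 IVP libraries, the lower genes were 2 for the transcription factors, 5 for the mesenchymal genes, 0 for the cadherins and 4 for the signals; with XIST as a covariate they were 7, 8, 5 and 7.

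In the EEM, where 3.81% of all genes changed, none of 12 transcription factors and none of 11 cadherins passed. Of 36 mesenchymal genes VCAN (1.5) and MMP14 (1.49) were higher in IVP embryos and S100A4 (-1.79) was lower. Of 28 signals PDGFB was higher (2.25), and NODAL (-2.48), TGFB2 (-1.63) and BMP4 (-1.04) were lower. Of 14 keepers of the epithelial state KLF4 was lower (-1.63), and of 43 junction genes KRT7 (-0.93). The KRT7 call (adjusted p = 0.0457) was lost without a surrogate variable, with XIST as a covariate and without IVV embryo 19, and that of BMP4 had an adjusted p of 0.046. With XIST as a covariate, 0 mesenchymal genes and 1 signal were lower.

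Between the tissues, where 24.5% of all genes differed (14.4% higher and 10.1% lower in the ED), the lists were as follows. Higher in the ED were 13 of 19 transcription factors and none lower, 11 of 22 cadherins and none lower, 18 of 32 signals with 3 lower, and 19 of 43 mesenchymal genes with 5 lower. The filter let a gene enter through the ED alone, and such a gene could hardly come out lower there, so these counts follow in part from the filter. In the EEM alone 12 transcription factors, 11 cadherins, 28 signals and 36 mesenchymal genes had the counts to be tested. Lower in the ED were 4 of 14 keepers of the epithelial state, TFAP2C (-0.36), KLF4 (-0.60), TFAP2A (-0.57) and GRHL1 (-0.27), with none higher, and 10 of 43 junction genes with 2 higher; in all 28.6% of the keepers and 27.9% of the junction genes differed, near the share of all genes, and within IVP embryos none of either list passed. TFAP2A is also a trophoblast marker. COL5A2 (9.13), TGFBI (7.82) and MMP2 (5.78) led the mesenchymal genes, PCDH18 (6.56) and CDH6 (6.30) the cadherins, and NODAL (4.32), HGF (5.96) and NOTCH1 (2.81) the signals. As for CDH11, a fold over EEM libraries with almost no counts depends on the prior count, so the largest of these values are not exact. The smooth muscle and actin genes TAGLN (-1.27) and CALD1 (-0.40), both on the mesenchymal list, were lower in the ED. The P-cadherin gene CDH3 was higher (0.98), as CDH1 was, while the keratin gene KRT18 was lower (-0.47). The median over all genes tested was -0.09, and the medians of the lists were 1.91 for the transcription factors, 0.56 for the mesenchymal genes, -0.27 for the keepers and -0.16 for the junction genes. The interaction of tissue and procedure, which passed for 1.02% of all genes (0.918% with a lower difference in IVP embryos), passed for 2 of 19 transcription factors (TBX6 and HMGA2), 6 of 43 mesenchymal genes and 2 of 32 signals (WNT5A and WNT3), all with a lower ED to EEM difference in IVP than in IVV embryos, and for none of the cadherins, keepers and junction genes.

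**Figure D5:**
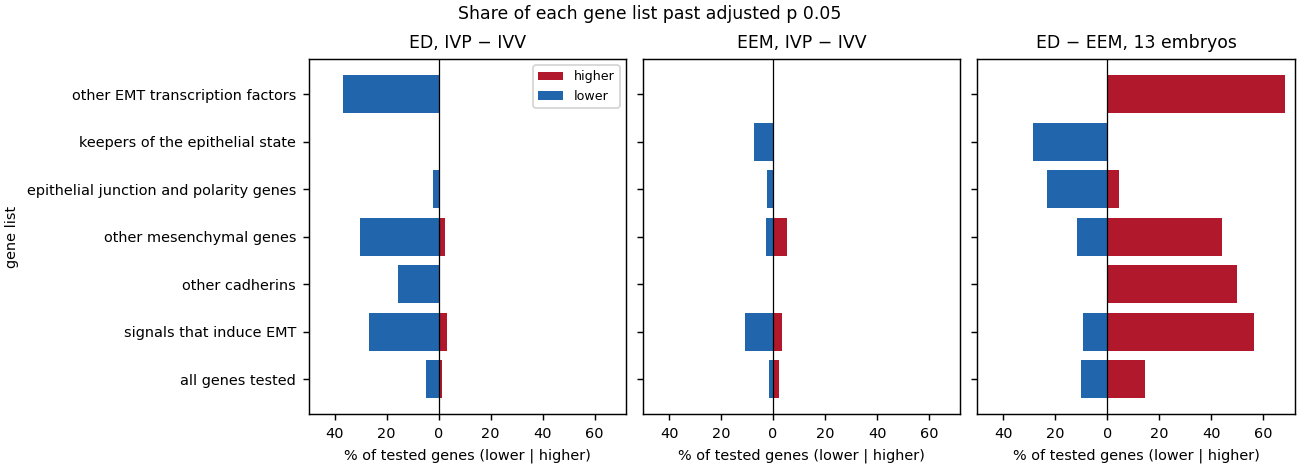
Share of the tested genes of each list, and of all genes tested, that were higher (right of 0) or lower (left of 0) at an adjusted p under 0.05, in percent, for IVP against IVV in the ED and EEM and for ED against EEM. In the ED of IVP embryos 36.8% of the transcription factors passed and 0% of the keepers of the epithelial state, beside 6.34% of all genes.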

How the data were processed

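Poly(A)-selected RNA was sequenced from the ED and EEM of day 15 embryos with a kit that does not mark strand. Reads were cleaned with SOAPnuke and mapped by the authors to the ARS-UCD1.3 assembly, with counts summed per Entrez gene, and the submitters' processing notes name FastQC 0.11.9, Trimmomatic, STAR 2.7.0b and featureCounts of Subread 2.0.3. The deposited values are raw counts, used here as they stand; a gene that overlaps another cannot be told apart from it without strand. Symbols were looked up by gene ID in RefSeq's table for ARS-UCD2.0 (31630 of 35092 genes), whose positions and lengths were not used, and no sequence is printed.

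IVP and IVV embryos were compared within each tissue with the quasi-likelihood test of edgeR 4.0.16 in R 4.3.3 (TMM, filterByExpr with at least 10 counts, 1 surrogate variable from svaseq of sva 3.50.0). The study controlled for morphology with sva. Here the surrogate variable was estimated from the counts, no measure of morphology entered, and whether the variable follows morphology was not tested. For ED against EEM the 26 libraries of 13 embryos entered 1 model with embryo as a block, since the titles tie both pieces to an embryo; their deviations from the group means correlated at -0.19 (embryo IVPF13) to 0.639, median 0.401. A second model with a tissue effect for each procedure gave the interaction. Benjamini-Hochberg adjustment covered all genes tested, with a threshold of 0.05. Log2 CPM used a prior count of 2. Standard errors were derived from a gene's fold change and F statistic, and the 95% intervals of fold changes are normal intervals from them, for 1 gene at a time. A ratio of summed counts has an exact binomial 95% interval. DESeq2 1.42.0, limma 3.58.1 (voom), other scaling, filters, covariates and left-out embryos were alternatives. The scripts were tested on simulated data.

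The members, gene lists and tests were chosen with earlier results of these data known. All 10 members are described in every comparison, and of each list at most 4 changed genes per comparison and direction, those with the smallest p. XIST, SOX2 and UTF1 were chosen after their values were seen. Levels per length and a motif search in promoters were planned and not run, since no lengths or sequences were used here.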

Additional observations from a re-analysis of the deposited data

Results flagged for a closer look

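Of 36 sets of values (a member in a group of embryos), 3 held a library far from the others by Dixon's criterion, where chance gives about 1 in 20, or 1.8. CDH11 in the ED of IVV embryos was 0.461 CPM in embryo 19, against 4.18 CPM in the next embryo. EPCAM in the ED of IVV embryos was 194 CPM in embryo 26, against 336 CPM in the next. VIM in the EEM of IVV embryos was 0 CPM in embryo 4, against 0.0809 CPM in the next, a difference of 5 counts.

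The effect of IVP on CDH11 differed between the ED and the EEM by -5.38 on the log2 scale (interaction in edgeR, adjusted p = 0.0445), in a gene with 14 counts in all EEM libraries together.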

How the results depend on the processing

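Each member's difference that passed the test kept its direction under every alternative in which it was tested. Of 972 values (a member, a comparison and an alternative), 889 kept direction and side of the threshold, 35 lost the call, 1 gained it and 47 changed sign; the last are all estimates that passed under no alternative, and the cause was not tested.

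In the ED, 998 genes differed between IVP and IVV embryos, and 1512 with DESeq2, 1846 without a filter, 431 with at least 10 counts in every library, 665 with XIST as a covariate, 240 without the embryos titled IVPF and 639 to 1160 with 1 embryo left out. Of the 2 members called, 1 remained (CDH11) with 10 counts in every library, where SNAI2 has too few counts to be tested, with XIST and without IVPF. In the EEM, 561 genes differed, and 1211 without a filter, 275 with 10 counts in every library, 144 with XIST and 426 to 729 with 1 embryo left out; 1 member was called with voom, 10 counts in every library, halved counts, the title letter as a term, XIST or without IVPF (SNAI2 with XIST and TWIST1 in the others; with 10 counts in every library and with halved counts 4 members were tested and SNAI2 was not among them), and 1 to 2 with 1 embryo left out.

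Between the tissues, 4104 genes differed with the replicate block (embryo), and without the block 2127 in the same 26 libraries and 2304 in all 30; 1828 did with 10 counts in every library, where 3 members (CDH1, CDH2 and EPCAM) had the counts to be tested in each tissue comparison and 2 (CDH1 and CDH2) were called. Within IVV embryos 3711 differed, 2268 and 2349 without the block and 1420 (2 of 3 members tested) with 10 counts in every library; 4 to 5 members passed with 1 embryo left out. Within IVP embryos 810 differed, 194 (1 of 3 members tested) with 10 counts in every library, and 473 to 851 (2 to 3 members) with 1 embryo left out. The interaction passed for 172 genes, 301 without the block in 30 libraries, 435 with DESeq2 (0 members), 356 without a filter, 11 with 10 counts in every library (0 of 3 members tested, CDH11 not among them) and 101 to 211 (0 to 1 members) with 1 embryo left out; with halved counts it passed for 0 members. Beside those 0 members, the unadjusted p of CDH11 in the edgeR model was 0.000411. Without the block, CDH1 lost its call over all embryos in the 26 libraries but not in all 30, and within IVV embryos in both, and CDH2 lost its call within IVP embryos in both; no other member's call was lost.

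The signs that changed were as follows, on the log2 scale. In the ED, CDH2 (-0.05) was 0.0061 without a surrogate variable, 0.0111 with halved counts, 0.2292 with XIST and 0.0618 without IVPF, VIM was 0.459 with XIST, and with 1 embryo left out CDH2 ran from -0.2346 to 0.0831 and TWIST1 from -0.2774 to 0.8801. In the EEM, CDH1 was -0.0845 with 2 surrogate variables (-0.1406 to 0.3611 with 1 embryo left out), and ZEB1 was 0.0388 without a filter, 0.0148 with the title letter, 0.4132 with XIST and 0.0094 without IVPF (-0.4497 to 0.2311 with 1 left out). Between the tissues, EPCAM was 0.0284 without the block in 30 libraries, 0.0188 with RLE size factors, 0.0188 with DESeq2 and 0.0501 with 10 counts in every library (-0.1035 to 0.0732 with 1 left out); within IVV it was -0.0005 without the block (-0.0482 to 0.1656) and within IVP 0.0608 without the block in 30 libraries (-0.4185 to 0.0627), where ZEB1 ran from -0.8832 to 0.1649. In the interaction without the block in 30 libraries, CDH1 was 0.2595 (-0.4531 to 0.0311 with 1 left out) and EPCAM 0.0571.

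Depth limits SNAI1, ZEB2 and the EEM values of CDH11 and VIM, which had too few counts for the filter, and SNAI2 in the EEM, which could not be tested when 1 of 6 IVV embryos was left out. The samples of a group come from few cows, so the p-values measure the spread between these embryos.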
